A study of Mus musculus with 3 samples.

Results

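The 9 genes described here encode ligands of the epidermal growth factor (EGF) family and their receptors: the ligands Areg (amphiregulin), Ereg (epiregulin), Hbegf (heparin-binding EGF-like growth factor), Tgfa (transforming growth factor alpha), Btc (betacellulin) and Epgn (epigen), and the receptors Egfr, Erbb2 and Erbb3. They were taken by gene symbol from the 20605 genes of a single-cell RNA sequencing experiment on mouse mammary tumour cells. No cut on expression values was used, but the genes were chosen with earlier results of these data known. The cells came from 4 C3(1)-Tag mice on the FVB background, aged 25 to 30 weeks, with tumours of 20 mm, and were isolated fresh. In these mice the rat C3(1) promoter drives the SV40 large T antigen, so every tumour cell here carries that transgene. Tumour tissue of each mouse was grown in collagen I, where the labels call the cultures organoids, or in Matrigel, where they call them clusters. Both were kept in DMEM/F12 with insulin, transferrin and selenium, penicillin and streptomycin, and 2.5 nM FGF2, and no EGF family ligand is named among the additives. Cells were sampled on day 0 (12 hours after plating), day 3 and day 5, and 4T1 mammary carcinoma cells grown on plastic in RPMI with serum were added to each of the 3 pools.

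The ligands are made as membrane-anchored precursors, are cut free by metalloproteases of the ADAM family, and bind receptors on the same or on neighbouring cells. Areg, Tgfa and Epgn bind Egfr, while Hbegf, Ereg and Btc can also bind Erbb4. Erbb2 has no known ligand of its own and pairs with the other receptors, and Erbb3, whose kinase is weak, binds neuregulins and signals through its partner. In the mammary gland Areg acts downstream of oestrogen in duct growth, and Erbb2 is an oncogene of breast cancer.

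A pair of limits of the design touches every comparison. Each day was its own pool and batch, so that day and pool cannot be told apart. Collagen cultures were released with collagenase at 37 °C and Matrigel cultures with EDTA on ice, so that matrix, form of the culture and release cannot be told apart either. In summed counts, fewer cells of a type and less RNA per cell cannot be told apart.

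Of 7620 cells, 7307 carried a mouse label, and 337 of these lay in macrophage-like, fibroblast-like or T and NK-like clusters and were left out. The remaining tumour cells were added up per mouse, matrix and day, which gave 21 sums of 38 to 1148 cells and 1831436 to 46657709 UMIs (unique molecular identifiers, each standing for 1 captured RNA molecule). All 4 mice gave a sum in both matrices on days 0 and 3. On day 5 there were 3 collagen sums (mice 1 to 3) and 2 Matrigel sums (mice 2 and 3). The sums carried epithelial markers throughout: luminal keratins and other luminal genes added up to 2442 to 6808 CPM (UMIs of a gene scaled to a common total for each sum), and basal markers to 991.6 to 5271 CPM. Macrophage markers added up to 3.75 to 28.8 CPM, fibroblast markers to 2.18 to 30.1 CPM and endothelial markers to 0.315 to 4.37 CPM. T and NK markers added up to 2.03 to 79.9 CPM. Neutrophil markers had group medians of 69.1 to 187.8 CPM and reached 638.2 CPM in 1 Matrigel sum of day 3. S100a8, listed among these neutrophil markers, was a leading gene of clusters 15 and 16, which were kept as tumour cells. Of the 27 markers with enough counts, edgeR called 0 between the matrices on any day, and DESeq2 called 0, 0 and 1 on days 0, 3 and 5. At an unadjusted p under 0.05 there were 6, 7 and 4 by edgeR on these days, beside 23.8%, 9.88% and 12.0% of all genes. The median UMIs per cell of a sum ran from 4378 to 22160 on day 0, from 25622 to 48767 on day 3 and from 52411 to 60985 on day 5.

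Of the ligand genes, 4 lie side by side on chromosome 5 within 375.5 kb that hold no other protein-coding gene (GRCm38, GENCODE vM21). Their order is Epgn (chr5:91027464-91035215, plus strand), Ereg (chr5:91074622-91093646, plus strand), Areg (chr5:91139599-91148432, plus strand) and Btc (chr5:91357261-91402994, minus strand). Tgfa lies at chr6:86195223-86275719 (plus strand), Egfr at chr11:16752203-16918158 (plus strand), Erbb2 at chr11:98412470-98437716 (plus strand) and Erbb3 at chr10:128567523-128589652 (minus strand). Ereg shares 152 bases with Gm19610, Egfr 15272 bases with Egfros and Erbb2 9 bases with Mien1, each on the opposite strand. The sources used here do not say whether the counting used strand, so reads from these overlaps cannot be assigned with certainty.

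Sequences just before the annotated start were at hand in RefSeq's promoter table (GRCm38.p6) for 6 of the 9 genes. Those of Epgn, Areg and Btc are shown because they are the cluster's ligands in that table, and each was called for a change of its matrix difference over the days with the mouse as a block. They are written 5′ to 3′ along the gene and end where the gene begins, and capitals mark matches to TGACGTCA, the cyclic AMP response element (CRE), or to TATAAA, the TATA box.
Epgn, chr5:91027267-91027463, plus strand: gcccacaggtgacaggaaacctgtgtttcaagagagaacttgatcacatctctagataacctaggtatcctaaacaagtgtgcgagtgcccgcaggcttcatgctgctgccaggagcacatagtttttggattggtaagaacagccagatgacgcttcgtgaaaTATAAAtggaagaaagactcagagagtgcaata
Areg, chr5:91139349-91139598, plus strand: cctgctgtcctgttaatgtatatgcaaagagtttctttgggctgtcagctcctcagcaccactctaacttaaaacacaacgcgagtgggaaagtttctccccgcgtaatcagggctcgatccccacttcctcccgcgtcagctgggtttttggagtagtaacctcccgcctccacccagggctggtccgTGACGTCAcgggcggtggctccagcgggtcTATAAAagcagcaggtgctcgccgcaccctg
Btc, chr5:91402995-91403244, minus strand: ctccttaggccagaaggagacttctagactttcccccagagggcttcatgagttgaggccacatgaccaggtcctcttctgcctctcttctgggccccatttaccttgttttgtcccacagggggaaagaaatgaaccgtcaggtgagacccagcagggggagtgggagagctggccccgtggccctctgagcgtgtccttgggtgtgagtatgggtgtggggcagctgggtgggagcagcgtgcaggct
TGACGTCA, TATAAA and TGANTCA, the site of AP-1 factors, were searched on both strands in the 250 bases before each start. The Areg window held TGACGTCA 61 bases and TATAAA 31 bases before its start, and the Epgn window held TATAAA 86 bases before the RefSeq start. Among 32851 windows of that length TGACGTCA stood in 1.55%, TATAAA in 12.4% and TGANTCA in 6.75%. The windows of Btc, Tgfa, Egfr and Erbb2 held none of the 3 motifs, which says only that these letters are not there.

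RNA of Areg and Hbegf was far more abundant than that of any receptor in these cells. Averaged over the 21 sums, Areg stood at 660.4 CPM, above 98.4% of the 13184 genes tested, and Hbegf at 279.1 CPM, above 95.8%. Ereg followed with 62.6 CPM, Tgfa with 26.9 CPM and Epgn with 23.1 CPM. The receptors were close together in the middle of all genes, with Erbb2 at 15.9 CPM, Erbb3 at 14.8 CPM and Egfr at 14.6 CPM, and Btc was lowest at 12.1 CPM. These CPM count molecules at the 3′ end and do not need a correction for gene length.

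The upper part of this order held in nearly every sum. Areg exceeded Hbegf in 19 of 21 sums, Hbegf exceeded Ereg in 21 and Ereg exceeded Tgfa in 20. Tgfa exceeded Epgn in 17 sums. Below that, neighbours did not differ beyond their spread: Epgn exceeded Erbb2 in 11 of 21 sums, Erbb2 exceeded Erbb3 in 12, Erbb3 exceeded Egfr in 12 and Egfr exceeded Btc in 14. Epgn varied most among the sums, 44.4-fold between the lowest (2.18 CPM) and the highest (96.8 CPM). Hbegf varied 16.1-fold, Btc 13.9-fold, Ereg 11.6-fold and Areg 7.82-fold. The receptors varied less, Erbb3 by 3.95-fold, Egfr by 2.96-fold and Erbb2 by 2.09-fold, and Tgfa by 2.73-fold. All 9 genes passed the filter on low counts.

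**Figure D1:**
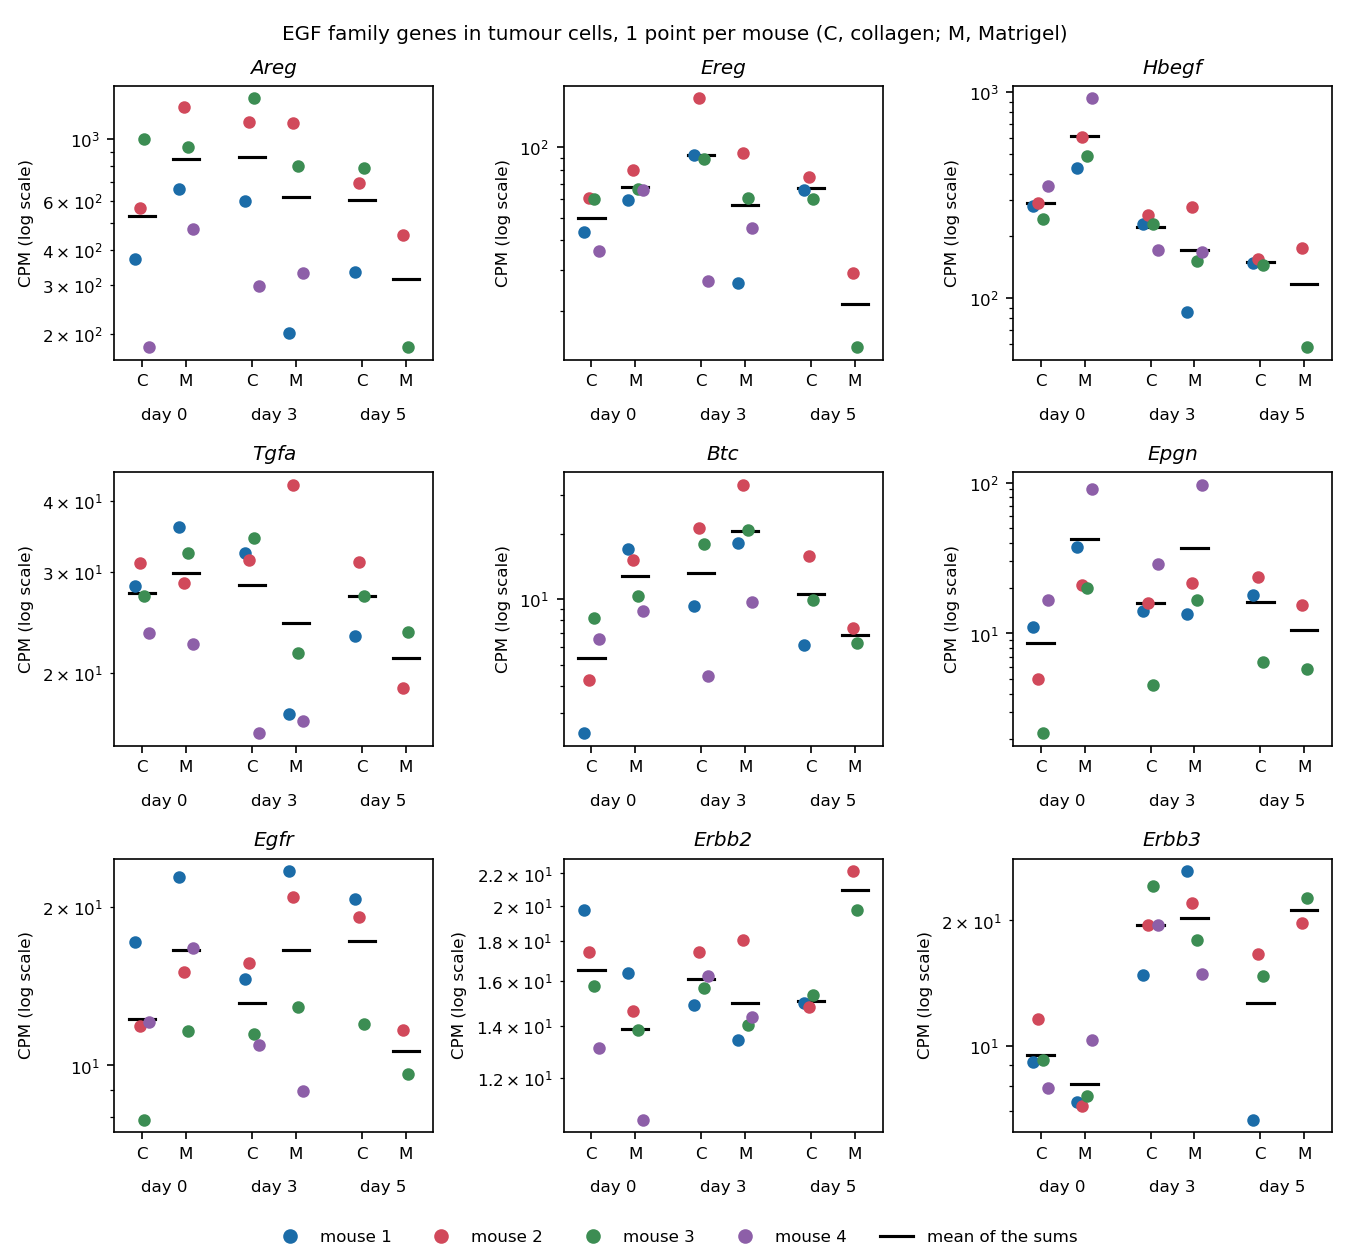
Level of each gene in each sum of tumour cells, in CPM on a log axis, by day, with collagen left of Matrigel; each point is 1 mouse and the bar is the mean of the group. Hbegf is lower in the 4 collagen sums than in the 4 Matrigel sums of day 0, and Erbb3 is higher in both matrices on day 3 than on day 0.

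Between the matrices on day 0, Hbegf was lower in collagen than in Matrigel, the 1 gene of the family called without the block, and Epgn and Btc were lower in collagen when the mouse was a block. Hbegf was at 281, 289, 241 and 351 CPM in the collagen sums of mice 1 to 4, against 429, 603.5, 490 and 932 CPM in the Matrigel sums. The highest collagen value lay below the lowest Matrigel value, and mouse 4 was highest in both matrices. On average Hbegf was at 290.8 ± 45.4 CPM in collagen and 613.6 ± 224 CPM in Matrigel (SD, n = 4 each), 0.474 of the Matrigel level (log2 fold change -1.08, SE 0.32), with an adjusted p of 0.0465 by edgeR's quasi-likelihood test with Benjamini-Hochberg adjustment over all genes. It was the 1 call among the 9 genes, beside 7.03% of all genes called in either direction on that day and 2.88% called lower. The call is close to its threshold: it was made in 8 of 19 settings, with adjusted p-values from 0.00516 to 0.126 and log2 fold changes from -1.20 to -0.92. It was lost without each of the 4 mice in turn, with adjusted p-values of 0.117, 0.117, 0.124 and 0.126 without mice 1, 2, 3 and 4.

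Epgn on day 0 was at 11.1, 5.02, 2.18 and 16.6 CPM in collagen, against 37.4, 20.9, 20.0 and 90.4 CPM in Matrigel, in mice 1 to 4. The groups did not overlap, and mouse 4 was again highest in both. Its log2 fold change was -2.28 (SE 0.74), the largest in size of the 9 genes on that day, but it did not pass the test in the fit without the mouse (edgeR, adjusted p = 0.0694). With the mouse as a block, which uses the fact that the same animals gave both cultures, it was -2.21 (SE 0.33, adjusted p = 0.000276). Btc, a ligand of Egfr and Erbb4, was at 2.41, 4.23, 8.17 and 6.56 CPM in collagen, against 16.9, 15.2, 10.4 and 8.85 CPM in Matrigel. Each mouse was lower in collagen and the groups did not overlap, although the gap was small in mice 3 and 4. Its log2 fold change was -1.33 (edgeR, adjusted p = 0.101), and -1.42 (SE 0.37, adjusted p = 0.0111) with the mouse as a block. Epgn, Btc and Hbegf were the 3 of 9 genes called with the block, beside 24.3% of all genes. The same 3 genes were called by DESeq2, for which no share of all genes is given here.

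The other ligands did not pass in either fit on day 0. Areg was at 370, 567, 1002 and 179 CPM in collagen, against 661, 1309, 933 and 477.5 CPM in Matrigel. It was lower in collagen in 3 of 4 mice and higher in mouse 3, and the groups overlapped widely (log2 fold change -0.67, edgeR adjusted p = 0.524; -0.80 and 0.0504 with the block). Ereg was at 43.4, 60.8, 59.9 and 35.9 CPM in collagen and 59.7, 80.2, 66.2 and 65.7 CPM in Matrigel, lower in all 4 mice with a slight overlap of the groups (log2 fold change -0.44, edgeR adjusted p = 0.539). Tgfa was at 27.6 ± 3.20 CPM in collagen and 29.9 ± 5.77 CPM in Matrigel (SD, n = 4 each), within its spread.

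No receptor was called between the matrices on day 0. Egfr, the receptor of all 6 ligands, averaged 12.2 ± 3.78 CPM in collagen and 16.5 ± 4.63 CPM in Matrigel (SD, n = 4 each) and was lower in collagen in all 4 mice. Erbb2, the partner receptor, averaged 16.5 ± 2.80 CPM in collagen and 13.9 ± 2.41 CPM in Matrigel and was higher in collagen in all 4 mice. Erbb3 averaged 9.50 ± 1.55 CPM in collagen and 8.11 ± 1.51 CPM in Matrigel. The median log2 fold change on day 0 was -0.88 over the 6 ligands and 0.23 over the 3 receptors, against 0.01 over all genes.

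A share of the day 0 cells lay in clusters of low UMI counts, 28.0% in collagen and 27.2% in Matrigel, and 399 of the 792 such cells over all days came from mouse 4 on day 0. Without these clusters Hbegf gave a log2 fold change of -1.03 (edgeR, adjusted p = 0.0355). The cluster led by 4T1 cells held 2.77% of the day 0 collagen cells and 0.94% of the Matrigel cells, and without it the adjusted p of Hbegf was 0.0593.

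Genes of the basal, contractile (myoepithelial) cells stood higher in collagen on day 0 without being called by edgeR. The log2 fold changes were 3.03 for Acta2 (adjusted p = 0.138), 3.10 for Myh11 (0.137), 2.40 for Krt5 (0.0954) and 1.71 for Trp63 (0.143), while Krt14 (-0.35) and Krt17 (-0.20) were not higher. The cluster led by Krt5 and Acta2, cluster 13, held 7.04%, 5.64%, 0.57% and 0.87% of the collagen cells of mice 1 to 4 on day 0, against 0.58%, 0.91%, 0.25% and 0% of the Matrigel cells. It was larger in collagen in all 4 mice, mainly in mice 1 and 2. Without this cluster, a setting added after the values were seen, Hbegf gave a log2 fold change of -1.06 (edgeR, adjusted p = 0.0642), and the call was lost. With the mouse as a block and without the cluster, Hbegf was at -1.03 (adjusted p = 0.0101), Epgn at -2.20 (0.000237) and Btc at -1.41 (0.0136).

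On day 3, none of the 9 genes was called between the matrices by edgeR, beside 0.205% of all genes called, and DESeq2 called 0. At an unadjusted p under 0.05 there were 0 of 9 by edgeR, beside 9.88% of all genes. Hbegf was at 228, 252, 230 and 171 CPM in the collagen sums of mice 1 to 4, against 85.9, 278, 151 and 168 CPM in the Matrigel sums. The collagen sums now lay within the range of the Matrigel sums, and 3 of 4 mice were higher in collagen. The change of the matrix difference from day 0, which uses the same sums, was 1.44 on the log2 scale for Hbegf (edgeR, adjusted p = 0.235), and 1.49 with the mouse as a block (adjusted p = 0.0274). It was the only one of the 9 genes called with the block in that comparison, beside 5.34% of all genes with the block and 0.0303% without it. Without the block edgeR called 0 of 9 there and DESeq2 called 0, and 1 of 9 was at an unadjusted p under 0.05, beside 10.9% of all genes.

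Epgn kept its direction on day 3. It was at 14.2, 15.9, 4.59 and 28.7 CPM in collagen, against 13.4, 21.6, 16.6 and 96.8 CPM in Matrigel. Mice 2, 3 and 4 were lower in collagen and mouse 1 was nearly equal, and mouse 4 stood far above the other Matrigel sums. With the mouse as a block the log2 fold change was -1.11 (SE 0.30, edgeR adjusted p = 0.0436), the 1 call among the 9 genes beside 4.37% of all genes. Btc was at 9.30, 21.3, 17.9 and 4.43 CPM in collagen, against 18.1, 33.6, 20.7 and 9.74 CPM in Matrigel, lower in all 4 mice with overlapping groups and not called in either fit. Areg and Ereg were both higher in collagen in 3 of 4 mice and not called. Areg averaged 862 ± 504 CPM in collagen and 619 ± 434 CPM in Matrigel (SD, n = 4 each). Tgfa averaged 28.5 ± 8.67 CPM in collagen and 24.4 ± 12.4 CPM in Matrigel. The receptors overlapped between the matrices. Egfr averaged 13.2 ± 2.30 CPM in collagen and 16.5 ± 6.74 CPM in Matrigel, Erbb2 averaged 16.1 ± 1.06 CPM in collagen and 14.99 ± 2.10 CPM in Matrigel, and Erbb3 averaged 19.5 ± 3.85 CPM in collagen and 20.3 ± 4.96 CPM in Matrigel. None of these 4 genes was called with or without the block.

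On day 5, with 3 collagen and 2 Matrigel sums, edgeR called none of the 9 genes, beside 0.455% of all genes called, and DESeq2 called 0. At an unadjusted p under 0.05 there were 3 of 9 by edgeR, beside 12.0% of all genes. Ereg was at 65.7, 74.5 and 60.4 CPM in the collagen sums of mice 1 to 3, against 28.9 and 14.0 CPM in the Matrigel sums of mice 2 and 3. All 3 collagen values lay above both Matrigel values. Its log2 fold change was 1.61 (SE 0.55, edgeR adjusted p = 0.221), and 1.81 (SE 0.42, adjusted p = 0.0178) with the mouse as a block, the 1 call with the block beside 6.28% of all genes. Areg was at 333, 695 and 785 CPM in collagen and 451.5 and 179 CPM in Matrigel, higher in collagen in both mice that had both sums, with overlapping groups. Erbb2 was at 15.01, 14.8 and 15.4 CPM in collagen against 22.2 and 19.8 CPM in Matrigel, with no overlap and an adjusted p of 0.333 by edgeR. Erbb3 was at 6.65, 16.6 and 14.7 CPM in collagen against 19.7 and 22.7 CPM in Matrigel (adjusted p = 0.371 by edgeR). The remaining genes were not called with or without the block. Hbegf was at 147, 154.6 and 145 CPM in collagen against 175 and 57.8 CPM in Matrigel, Btc at 6.14, 15.7 and 9.91 CPM in collagen against 7.39 and 6.27 CPM in Matrigel, and Epgn at 17.9, 23.8 and 6.52 CPM in collagen against 15.4 and 5.78 CPM in Matrigel. The groups of these 3 ligands overlapped. Egfr averaged 17.3 ± 4.61 CPM in collagen (n = 3) and 10.7 ± 1.45 CPM in Matrigel (n = 2), and Tgfa 27.2 ± 4.03 CPM in collagen and 21.2 ± 3.42 CPM in Matrigel.

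Set beside day 0, the matrix difference of day 5 ran the other way for most ligands. The median change over the 6 ligands was 1.79 on the log2 scale and over the 3 receptors -0.74, against 0.02 over all genes. Without the block edgeR called 0 of 9, beside 1.19% of all genes called. DESeq2 called 1 (Ereg), and no share of all genes is given here for DESeq2. At an unadjusted p under 0.05 there were 7 of 9 by edgeR, beside 16.1% of all genes. With the mouse as a block, 6 of 9 were called, beside 13.7% of all genes. Epgn changed by 2.54 (edgeR, adjusted p = 0.00928), Btc by 2.24 (0.0271), Areg by 2.08 (0.0111) and Hbegf by 1.59 (0.0263), all towards collagen. Ereg, the member called by DESeq2, gave 2.29 with the block (edgeR, adjusted p = 0.00774) and 2.05 without it (adjusted p = 0.129). Erbb2 changed by -0.75 (edgeR with the block, adjusted p = 0.0281), towards Matrigel. These values rest on the 2 Matrigel sums of day 5, which hold 51 cells (mouse 2) and 38 cells (mouse 3).

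**Figure D2:**
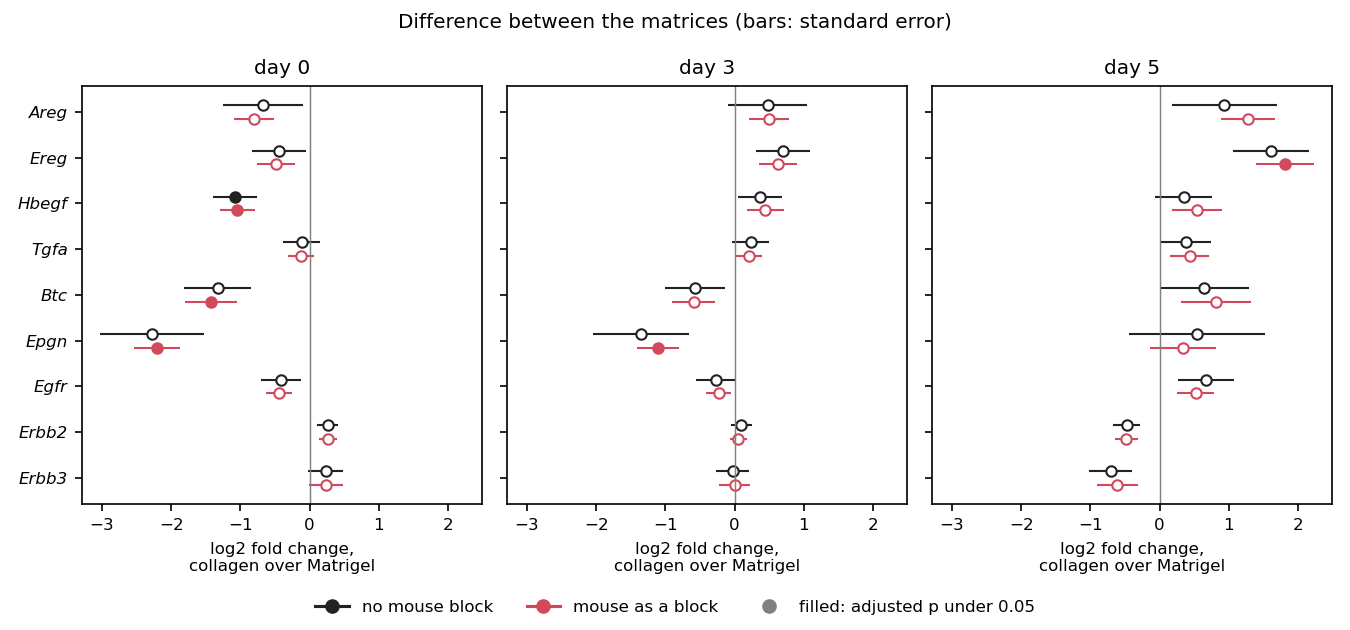
Log2 fold change of collagen over Matrigel for each gene on days 0, 3 and 5, with its standard error, in the fit without and the fit with the mouse as a block; filled points have an adjusted p under 0.05. On day 0 Hbegf is called in both fits and Epgn and Btc only with the block, on day 3 Epgn and on day 5 Ereg only with the block.

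Over time, Hbegf fell in Matrigel and Erbb3 rose in both matrices between day 0 and day 3. In Matrigel, Hbegf was at 85.9, 278, 151 and 168 CPM on day 3 in mice 1 to 4, against 429, 603.5, 490 and 932 CPM on day 0. The groups did not overlap, and every mouse was lower on day 3. The day 3 level was 0.280 of the day 0 level (log2 fold change -1.84, SE 0.32, edgeR adjusted p = 0.000217). The call held in all 19 settings, with log2 fold changes from -2.18 to -1.53, and without the low-UMI clusters it was -1.55 (adjusted p = 0.000332). In collagen, Hbegf was also lower on day 3 than on day 0 in all 4 mice, with 220.3 ± 34.4 CPM on day 3 and 290.8 ± 45.4 CPM on day 0 (SD, n = 4 each), and did not pass the test. It was lower again on day 5 than on day 3 in every mouse of both matrices, at 148.9 ± 5.15 CPM in collagen (SD, n = 3), and no such step was called. Hbegf was at 175 and 57.8 CPM in the Matrigel sums of mice 2 and 3 on day 5.

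Erbb3 was the receptor called over time. In collagen it was at 14.8, 19.5, 24.3 and 19.5 CPM on day 3 in mice 1 to 4, against 9.16, 11.6, 9.26 and 7.94 CPM on day 0. In Matrigel it was at 26.3, 22, 17.95 and 14.9 CPM on day 3, against 7.32, 7.18, 7.57 and 10.4 CPM on day 0. In both matrices all day 3 sums lay above all day 0 sums. The log2 fold change was 1.04 (SE 0.25, 2.05-fold, edgeR adjusted p = 0.00598) in collagen and 1.29 (SE 0.25, 2.45-fold, adjusted p = 0.000465) in Matrigel. The Matrigel call held in all 19 settings and the collagen call in 18, the exception being the fit without mouse 3 (0.92, adjusted p = 0.0870). From day 3 to day 5 Erbb3 stood lower in all 3 mice in collagen, at 6.65, 16.6 and 14.7 CPM on day 5, without passing the test. Egfr and Erbb2 did not pass any test over time in either matrix, with or without the block.

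Btc, the third gene called over time, rose in collagen between day 0 and day 3. It was at 9.30, 21.3, 17.9 and 4.43 CPM on day 3, against 2.41, 4.23, 8.17 and 6.56 CPM on day 0 in mice 1 to 4. Mice 1 to 3 were higher on day 3 and mouse 4 was lower. The log2 fold change was 1.42 (SE 0.48, 2.67-fold, edgeR adjusted p = 0.0428), a call made in 12 of 19 settings with adjusted p-values up to 0.307. Erbb3 and Btc were thus 2 of 9 genes called in collagen, both higher, beside 19.6% of all genes called in either direction and 9.33% called higher. In Matrigel Erbb3 and Hbegf were 2 of 9, beside 39.1% of all genes, and the same 2 genes were called with the block, beside 54.8%. These shares of the family are near or below those of all genes. With the block, Ereg was called too in collagen between these days (log2 fold change 0.81, edgeR adjusted p = 0.0269), beside 37.7% of all genes. Epgn was higher on day 3 than on day 0 in all 4 mice in collagen and in 2 of 4 in Matrigel, with log2 fold changes of 0.80 and -0.12 that did not pass the test. Tgfa was at 0.07 in collagen and -0.28 in Matrigel on the same scale.

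Depth and markers of other cell types differed between these days too. The median UMI count per cell of the 4 sums ran from 25622 to 40151 on day 3 and from 4378 to 19396 on day 0 in collagen, and from 34877 to 48767 on day 3 and from 8595 to 22160 on day 0 in Matrigel. By edgeR, Kit (-2.24), Cxcr2 (-2.91) and Pecam1 (-1.82) were lower on day 3 in collagen. In Matrigel, Elf5 (3.42), Krt5 (2.46) and Notch3 (2.17) were higher, and Krt17 (-1.08), Epcam (-0.55), Cxcr2 (-2.90) and Pecam1 (-2.12) were lower. The macrophage markers Lyz2, Cd68 and Csf1r did not pass the test, with log2 fold changes of -0.05, -0.80 and -1.66 in collagen and 0.97, -0.83 and -0.76 in Matrigel. The summed level of all 7 macrophage markers in the files was at 8.48 to 11.03 CPM on day 3 and 14.1 to 28.8 CPM on day 0 in collagen, and at 5.46 to 14.8 CPM on day 3 and 7.12 to 22.3 CPM on day 0 in Matrigel, while the macrophage-like cells held Hbegf at 10.2 CPM over all days. The part of depth and of these markers in the results was not tested, except for the cluster led by Krt5 and Acta2. Without that cluster, day 3 against day 0 gave Hbegf at -1.79 and Erbb3 at 1.34 in Matrigel, and Erbb3 at 1.07 in collagen, all called (adjusted p = 0.00041, 0.000469 and 0.00585).

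Between day 0 and day 3 Areg went different ways in the 2 matrices. In collagen it was at 601, 1150, 1400 and 296 CPM on day 3 in mice 1 to 4, against 370, 567, 1002 and 179 CPM on day 0. In Matrigel it was at 201.5, 1143, 803 and 330 CPM on day 3, against 661, 1309, 933 and 477.5 CPM on day 0. All 4 mice were higher on day 3 in collagen and all 4 were lower in Matrigel, but the groups of both days overlapped widely, and no test of Areg between these days passed in either fit.

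From day 3 to day 5 edgeR called none of the 9 genes in collagen, beside 1.15% of all genes, and with the block none either, beside 10.5%. Without the block 1 of 9 was at an unadjusted p under 0.05, beside 12.2% of all genes, and DESeq2 called 0. In Matrigel edgeR without the block also called none, beside 2.5% of all genes, and DESeq2 called 0. There 3 of 9 were at an unadjusted p under 0.05 by edgeR, beside 16.9% of all genes. With the mouse as a block, 3 ligands of the chromosome 5 cluster were lower on day 5 in Matrigel, beside 12.7% of all genes. Ereg gave a log2 fold change of -1.71 (edgeR, adjusted p = 0.0128), Areg -1.50 (0.0179) and Btc -1.91 (0.0192). Areg was at 451.5 and 179 CPM on day 5 in mice 2 and 3, against 1143 and 803 CPM in the same mice on day 3. Tgfa and Egfr were not called in any of the 9 comparisons, with or without the block.

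Other parts of the pathway were described from 5 lists. Of the 6 further ErbB ligands and receptors listed, 5 were in the files and 2 had enough counts to be tested: Nrg1, a neuregulin ligand of Erbb3 and Erbb4, averaged 6.95 CPM and Nrg2 2.48 CPM. Egf itself averaged 0.560 CPM, Nrg4 0.167 CPM and Erbb4 0.0334 CPM (8 UMIs in all sums). Neither neuregulin was called in any comparison by edgeR without the block. With the mouse as a block, 1 of the 2 was called lower in collagen on day 5, beside 6.28% of all genes. With the block 1 was also called higher on day 5 than on day 3 in Matrigel, beside 12.7%. On day 5 Nrg2 averaged 2.01 CPM in collagen (n = 3) and 8.56 CPM in Matrigel (n = 2), and Nrg1 8.92 and 12.4 CPM. The receptor transcripts with counts to compare were therefore those of Egfr, Erbb2 and Erbb3.

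Of the 5 lists, that of ERK targets and feedback had the most calls over time. Of 14 such targets and feedback genes, 7 fell and 1 rose in Matrigel between day 0 and day 3 (edgeR, adjusted p under 0.05), beside 39.1% of all genes called, with a median log2 fold change of -0.80 against -0.01 over all genes. Fosl1, an AP-1 subunit, averaged 60.5 ± 31.4 CPM on day 3 and 331.9 ± 98.8 CPM on day 0 in Matrigel (SD, n = 4 each), a log2 fold change of -2.45 (adjusted p = 5.95e-05). Dusp6, a phosphatase that removes the activating phosphates of ERK, averaged 54.6 ± 15.5 CPM on day 3 and 131.0 ± 6.70 CPM on day 0 (log2 fold change -1.25, adjusted p = 5.85e-06). Spry2 (-1.87), Dusp5 (-1.70), Egr1 (-1.16), Phlda1 (-1.12) and Spred1 (-0.40) also fell, and Etv4, an ETS transcription factor, rose by 0.77. In collagen 3 of the 14 fell, namely Spry2 (-1.13), Dusp6 (-0.80) and Spred1 (-0.44), and Etv4 rose by 0.53, beside 19.6% of all genes called, with a median of -0.37 against -0.02 over all genes.

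Dusp6 rose again by day 5. In collagen it averaged 126.8 ± 12.5 CPM on day 5 (n = 3) and 67.9 ± 5.61 CPM on day 3 (n = 4), a log2 fold change of 0.90 (edgeR, adjusted p = 0.00628). In Matrigel it averaged 167.7 ± 34.8 CPM on day 5 (n = 2) and 54.6 ± 15.5 CPM on day 3 (n = 4), with a log2 fold change of 1.61 (adjusted p = 8.12e-05), and Etv5 rose there as well (1.46, adjusted p = 0.0252). Of the 14 genes of the list, 1 was called over this step in collagen, beside 1.15% of all genes, and 2 in Matrigel, beside 2.5%. Over the same step none of the 6 ligands was called as higher in either matrix, with or without the block. Fosl1 was the 1 listed gene called for a changed matrix difference on day 5 against day 0 (log2 change 2.67, edgeR adjusted p = 0.0437), beside 1.19% of all genes. It averaged 152 ± 46.0 CPM in collagen and 331.9 ± 98.8 CPM in Matrigel on day 0, and 99.5 ± 4.33 CPM in collagen and 33.6 ± 16.1 CPM in Matrigel on day 5.

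Among 10 receptor inhibitors and turnover genes, 4 fell and 1 rose in Matrigel between day 0 and day 3, beside 39.1% of all genes called, with a median log2 fold change of -0.52. Errfi1 (-1.06, edgeR adjusted p = 0.0252), an inhibitor of the Egfr kinase, Socs4 (-0.67), Lrig2 (-0.64) and the ubiquitin ligase Cbl (-0.62) were lower. Cblc, an epithelial relative of Cbl, rose in both matrices, by 1.60 in Matrigel (adjusted p = 2.71e-05) and 1.04 in collagen (adjusted p = 0.00289). It was the 1 call of its list in collagen over these days, beside 19.6% of all genes. Of 8 ligand shedding and trafficking genes, the metalloprotease inhibitor Timp3 rose in collagen between day 0 and day 3 (0.83, adjusted p = 0.0320), beside 19.6% of all genes called. That was the 1 call of that list in the 9 comparisons without the block. Of 14 adaptors and signal relays, Hras rose in both matrices over these days (0.82 in collagen, 0.85 in Matrigel), and Pik3ca (-0.49) and Nras (-0.38) fell in Matrigel. In collagen 1 of the 14 was called, beside 19.6% of all genes. In Matrigel 1 rose and 2 fell, beside 39.1% of all genes called. Between the matrices on day 0, edgeR called 0 of the 48 genes tested over all 5 lists without the block. DESeq2 called 4, with no share of all genes given here for DESeq2. At an unadjusted p under 0.05 there were 8 of the 48 by edgeR, beside 23.8% of all genes. With the block, beside 24.3% of all genes called, 5 of the 14 adaptors were lower in collagen on day 0 (Ptpn11, Pik3cb, Grb2, Hras and Nras). Of the 14 ERK targets 3 were lower (Fosl1, Ier3 and Dusp5) and Etv4 was higher. Cd9 and Socs4 were lower and Cblc was higher.

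Over the 21 sums, the genes with the course most like each ligand were found by the root mean square difference of centred log2 CPM, among 6009 genes of at least 20 CPM. Those nearest to Areg were Traf1 (0.467), Cgref1 (0.518) and Ereg (0.529), against a median of 0.951 over the candidates. Those nearest to Ereg were Cd44 (0.422), Capn2 (0.431) and Plec (0.444), and those nearest to Hbegf were Epha2 (0.381), Stx3 (0.388) and Klf6 (0.390). Tgfa had Tnks1bp1 (0.214), B4galt3 (0.222) and Rbms1 (0.247) nearest. For Epgn even the nearest gene, Id3, stood at 0.801, against a median of 1.31.

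Single cells showed how often a ligand and a receptor were found in the same cell. Each cell was thinned to 2000 UMIs so that depth did not set the share, which left out 84 collagen and 138 Matrigel cells on day 0, 11 and 19 on day 3, and 1 of each on day 5. On day 0 a UMI of any of the 6 ligands was found in 55.3%, 68.9%, 67.7% and 65.0% of the collagen cells of mice 1 to 4, against 77.2%, 84.1%, 81.1% and 87.2% of the Matrigel cells. The collagen shares lay below all Matrigel shares (64.2% ± 6.16 in collagen and 82.4% ± 4.27 in Matrigel, SD, n = 4 each). The exact two-sided permutation test gave p = 0.0286, the smallest it can give here, and 0.257 after Benjamini-Hochberg adjustment over 9 such tests, which were added after the values were seen. The paired exact test gave 0.13, the smallest it allows. Without thinning the means were 88.4% in collagen and 96.3% in Matrigel.

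Receptors were found in far fewer cells. On day 0 a UMI of any receptor was found in 9.31% ± 2.76 of collagen cells and 7.26% ± 1.58 of Matrigel cells (SD, n = 4 each, exact permutation p = 0.229). Both a ligand and a receptor UMI were found in 4.83%, 7.65%, 3.73% and 9.44% of the collagen cells of mice 1 to 4, against 5.33%, 5.92%, 3.42% and 7.82% of the Matrigel cells. These groups overlapped (6.41% ± 2.61 in collagen and 5.62% ± 1.81 in Matrigel, exact permutation p = 0.657), and without thinning the means were 39.9% in collagen and 43.3% in Matrigel. On day 3 the shares with both were 6.86% ± 0.873 in collagen and 5.80% ± 2.07 in Matrigel (n = 4 each, exact permutation p = 0.371). On day 5 they were 4.46% ± 3.01 in collagen (n = 3) and 3.31% ± 0.862 in Matrigel (n = 2, exact permutation p = 0.600, where the smallest possible is 0.2).

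At equal depth, co-detection was close to the product of the single shares. If ligand and receptor UMIs fell on cells independently, both would be found in 5.98% of collagen cells and 6% of Matrigel cells on day 0, where 6.41% and 5.62% were observed. The observed share exceeded the product in 9 of 21 sums, and in 10 of 21 when cells were thinned to 10000 UMIs instead. Without thinning, where cells of 1 sum differ in depth, it exceeded the product in 18 of 21 sums. At 10000 UMIs both were found in 30.3% of cells in collagen and 31.3% in Matrigel on day 0. At that depth the shares were 32.5% in collagen and 28.0% in Matrigel on day 3, and 31.3% in collagen and 19.6% in Matrigel on day 5. In the median sum at that depth, 13.4% of cells had no ligand detected, 22.02% had 1, 28.8% had 2 and 25.2% had 3, while 65.4% had no receptor detected, 28.4% had 1 and 5.05% had 2.

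**Figure D3:**
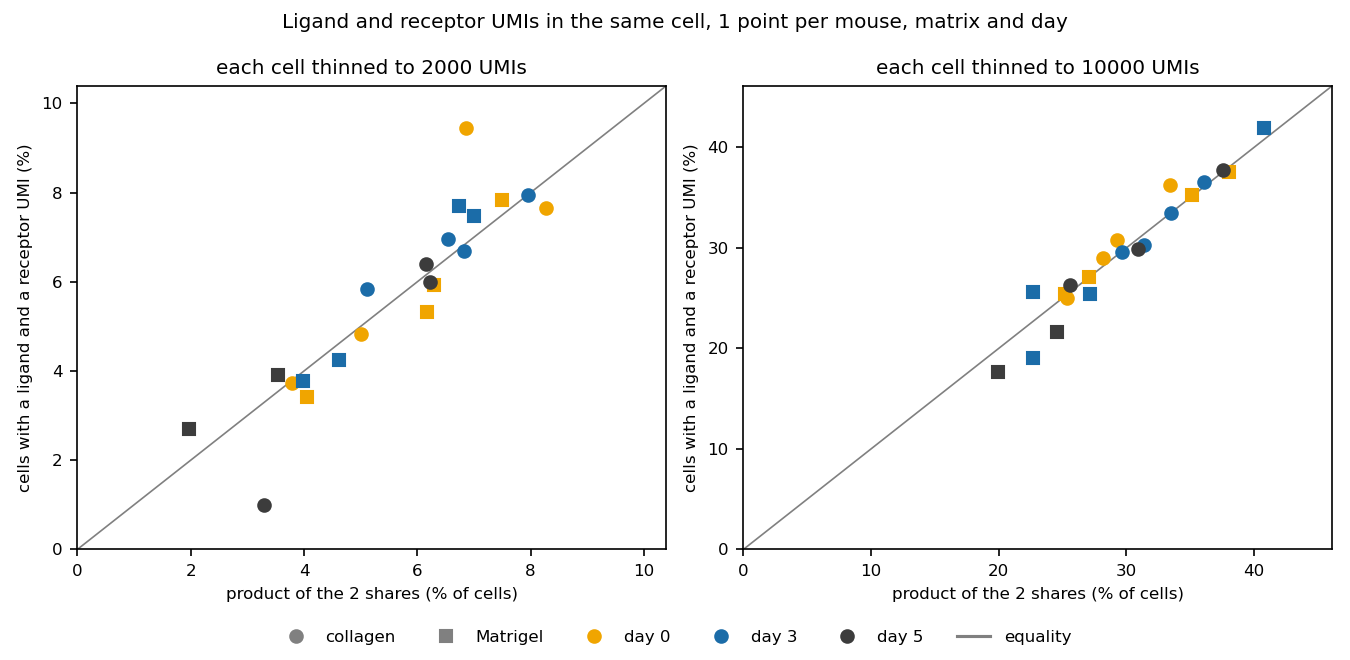
Percent of cells with a ligand and a receptor UMI in each sum (vertical axis) against the percent given by the product of the single shares (horizontal axis), with cells thinned to 2000 or 10000 UMIs; the line marks equality. The sums lie on both sides of the line, with 9 of 21 above it at 2000 UMIs and 10 of 21 at 10000 UMIs.

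Areg was found together with Hbegf and with Ereg more often than the product of their shares in most sums. Areg and Hbegf were together in a median of 15.2% of the cells of a sum at 2000 UMIs, against 11.1% from the product, and exceeded it in 15 of the 17 sums where at least 5 such cells were due. Areg and Ereg exceeded it in 14 of 14 such sums, by a median factor of 1.37. Of the 18 pairs of a ligand and a receptor, only those of Areg are given here, and they did not show this. The median factor was 1.03 for Areg and Egfr (above the product in 4 of 8 sums), 0.859 for Areg and Erbb2 (2 of 5) and 0.922 for Areg and Erbb3 (2 of 6). These factors are descriptions, since cells of a sum share a library and may be of several types.

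The macrophage-like cells gave the level that free RNA may reach. At 2000 UMIs, any ligand was found in 4% of 200 such cells, Areg in 2%, Hbegf in 1.5% and Ereg in 0.5%. No receptor UMI was found among these 200 cells, which allows up to 1.83% (95% interval, counting error only). Their median UMI count was 14930 before thinning. The shares of any ligand and of any receptor lay above these levels in every tumour sum, as did those of Areg, Hbegf and Ereg. Taken singly, Egfr, Erbb2 and Erbb3 each fell below 1.83% in some tumour sums, as did Btc and Epgn.

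Cells with a Krt14 UMI, the keratin of basal mammary cells, were set against cells without one in the same sum. Krt14-detected cells made up 44.7% to 78.3% of the cells of the sums used, and cluster 13, led by Krt5 and Acta2, 0% to 16.8%. The split is therefore not one of basal against other cells. Erbb3 and Tgfa, higher in Krt14-detected cells below, were lowest in cluster 13 (5.69 and 14.8 CPM). Over 18 sums with enough cells of both kinds, averaged per mouse, Epgn was higher in Krt14-detected cells in 4 of 4 mice (mean log2 ratio 0.59 ± 0.37, SD over 4 mice), as were Egfr (0.38 ± 0.29), Erbb3 (0.33 ± 0.15) and Tgfa (0.28 ± 0.16). Areg (-0.38 ± 0.17) and Ereg (-0.61 ± 0.38) were lower in Krt14-detected cells in 4 of 4 mice. Each of these 6 has an exact two-sided sign-flip p of 0.13, the smallest that 4 mice allow, so none can pass the threshold. Hbegf (-0.21 ± 0.26), Btc (-0.17 ± 0.40) and Erbb2 (0.13 ± 0.20) were not in 1 direction in all mice. With Krt14 called at 10000 UMIs, which leaves out the shallower cells, the ratio moved to 0.037 for Areg, -0.20 for Ereg, 1.36 for Epgn and 0.13 for Erbb3.

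**Figure D4:**
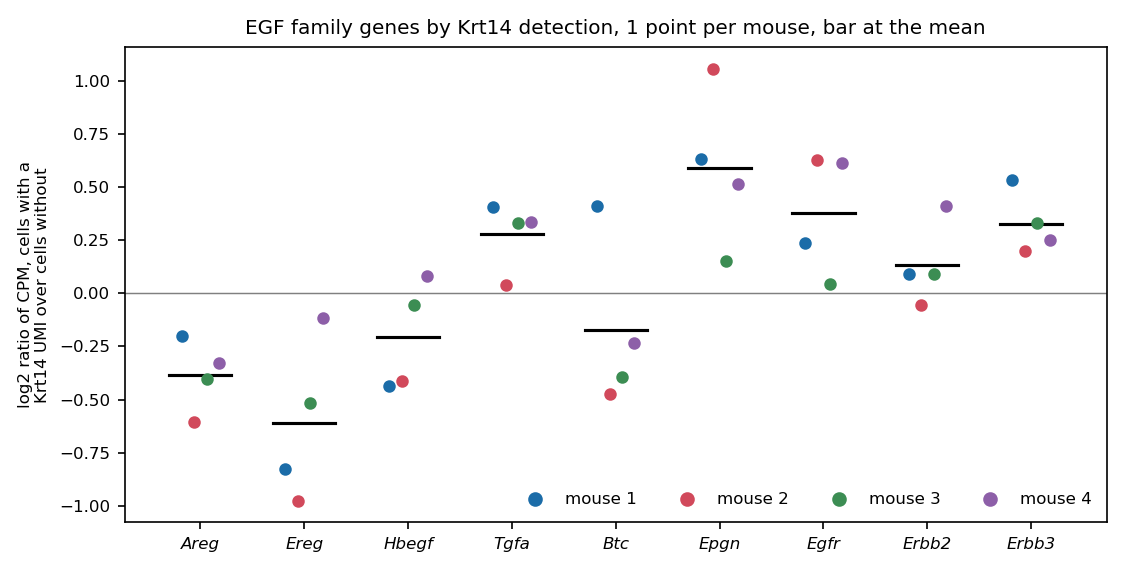
Log2 ratio of CPM in Krt14-detected over Krt14-undetected cells for each gene; points are the 4 mice and the bar is their mean. Areg and Ereg lie below 0 in all 4 mice, and Epgn, Egfr, Erbb3 and Tgfa lie above 0 in all 4; with Krt14 called at 10000 UMIs the mean of Areg is 0.037.

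Across the 18 clusters of tumour cells with at least 20 cells of some mouse, every ligand but Tgfa spanned a wider range than the receptors. These levels are a description, since clusters were built from all genes. Hbegf ran from 44.0 CPM in cluster 13 through a median of 249.3 CPM to 1997 CPM in cluster 18, a cluster of low UMI counts led by Cyr61, Hspb1 and Dusp1. Ereg ran from 17.8 CPM through a median of 56.7 CPM to 574 CPM in cluster 16. Cluster 13, whose leading genes were Krt5, Acta2, Tagln, Myl9 and Cnn1, had the lowest Areg (141 CPM), Ereg, Hbegf, Tgfa (14.8 CPM) and Erbb3 (5.69 CPM), and the highest Egfr (27.4 CPM).

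In 4T1 cells, 1 sum per pool with no replicate, Hbegf was the highest ligand, at 122 CPM (95% Poisson interval 115 to 130) on day 0, 144 CPM (138 to 151) on day 3 and 78.8 CPM (68.5 to 90.2) on day 5. Areg was at 35.02, 40.8 and 21.8 CPM, so that Hbegf exceeded Areg on all 3 days. Ereg was at 0.248, 1.61 and 1.13 CPM and Egfr at 0.742, 0.733 and 0.375 CPM. Erbb2, at 11.5, 4.91 and 13.1 CPM, was the highest receptor on each day. The intervals cover counting error only.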

How the data were processed

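Cells freed from the gels were tagged by condition with MULTI-seq, pooled by day, sorted as live and sequenced by the 10x Genomics 3′ v2 method, as the labels' protocols state. Cell Ranger 3.0.2, Scanpy 1.4.4 and the builds GRCm38 and mm10 appear, without roles, in the submitters' processing notes. The matrix deposited by the authors holds raw UMI counts, and all 39668312 entries were whole. The deposited cell annotation gives mouse, matrix and day, and its total counts and mitochondrial fractions matched the matrix in all 7620 cells. No cell exceeded 9.99% mitochondrial counts or had fewer than 270 genes. Of the barcodes, 11 occurred on more than 1 day. The gene annotation's number of cells per gene reached 8868, more than the cells in the matrix. The first time point of the annotation, D1, was taken as day 0 because the other days match by name. The number of unused columns with per-sample values was 0.

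Cells were clustered with Scanpy 1.11.5 (2000 variable genes, 30 components, 15 neighbours, Leiden resolution 1.0, leidenalg 0.10.2; 24 clusters) and no doublet caller was run. UMIs were summed over at least 20 tumour cells per mouse, matrix and day. edgeR 4.0.16 in R 4.3.3 tested the 13184 genes that passed its filter (TMM, quasi-likelihood, 1 fit of 6 groups), with Benjamini-Hochberg adjustment in each of 9 comparisons at 0.05. Fold changes are positive for collagen over Matrigel or the later day. CPM are relative to the TMM-scaled total. The mouse is the replicate. The labels say the same animals were used throughout, and same-mouse sums deviated together (median correlation 0.448, others -0.125), so the blocked fit, with mouse as a term, stands beside results whose call it changes. The labels state no test, and the first fit left this pairing out. All 21 sums correlated best with a sum of their own mouse. The common dispersion was 0.0853 in the first fit and 0.0256 with the mouse as a block, so the first fit works with a wider spread. In 28 pairs of replicate sums, chi-square over its degrees of freedom was 7.5 to 64.4, beyond counting noise. On simulated counts of 13184 genes for the day 0 matrix comparison, 25% of genes changed 2-fold and 87% of those changed 4-fold were called.

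By the rule for named genes, all 9 genes are described in the comparisons, with pathway genes called in the fit without the block. The members, lists and several settings were chosen with earlier results of these data known. Of 20605 gene identifiers, 20574 were in GENCODE vM21. Python 3.11.15, NumPy 2.4.6, SciPy 1.17.1, pandas 2.3.3, DESeq2 1.42.0 and matplotlib 3.10.9 were also used.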

Additional observations from a re-analysis of the deposited data

Results flagged for a closer look

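In 48 groups of 4 values (levels and shares), the highest or lowest was set against the others by Dixon's criterion, and 3 stood beyond it, where chance gives about 1 in 20. All 3 were sums of mouse 4. Epgn was highest in its Matrigel sum of day 3, at 96.8 CPM (ratio of the gap to the range 0.902), against 13.4, 21.6 and 16.6 CPM in the other mice. Erbb3 was highest in its Matrigel sum of day 0, at 10.4 CPM (ratio 0.878), against 7.18 to 7.57 CPM in the others. Tgfa was lowest in its collagen sum of day 3, at 15.7 CPM (ratio 0.845), against 31.6 to 34.5 CPM in the others. A count of 3 in 48 is near the share that chance gives, and whether mouse 4 differs from the other mice was not tested.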

How the results depend on the processing

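The number of the 9 genes called between the matrices on day 0 was 1, and became 3 with the mouse as a replicate block or with DESeq2, 3 with the block and without the 4T1-led or the Krt5-led cluster, and 4 with the block and without the low-UMI clusters (these fits, and those without the Krt5-led cluster, were chosen after seeing the data). It was 0 with only the compared groups fitted, total UMI scaling, no filter, all labelled cells, without the 4T1-led or the Krt5-led cluster, and with a minimum of 10 cells, and 0 to 1 without each mouse. Of all genes, 7.03% were called on day 0 without the block and 24.3% with the block. Shares for the other comparisons in the fits without and with the block stand in the passages above. No such share is given here for DESeq2 or the other settings, so their counts are not a result about the family. On day 3 the number of the 9 genes called was 0, and 1 in each of the 4 fits with the block. On day 5 it was 0, and 1 in these fits except 2 without the 4T1-led cluster. For day 3 against day 0 in collagen it was 2, and 1 with only the compared groups, total UMI scaling, or without the 4T1-led or low-UMI clusters, 0 to 3 without each mouse (0 without mouse 3, 3 without mouse 4), and 4 with the block and without the low-UMI or the Krt5-led cluster. For day 5 against day 3 in Matrigel it was 0, and 3 with the block in all 4 fits. The change of the matrix difference gave 0, and 1 with the block on day 3 in all 4 fits, and on day 5 it gave 6 with the block in all 4, and 1 with only the compared groups or with DESeq2. For Matrigel on day 3 against day 0 the count of 2 held in every setting tried. The difference in the share of cells with a ligand and a receptor, collagen minus Matrigel, was 0.791 percentage points on day 0, and -1.04 at 10000 UMIs, -3.46 with no thinning and -0.325 when 2 UMIs were asked for. On day 3 it was 1.05, and 4.48 at 10000 UMIs and -1.30 with no thinning. On day 5 it was 1.15, and -0.229 to 2.88 without each mouse, the lowest without mouse 3. It was 3.73 there with no thinning and 11.7 at 10000 UMIs (exact permutation p = 0.2, the smallest possible). The Krt14 ratios at 10000 UMIs were 0.037 for Areg, -0.20 for Ereg, 1.36 for Epgn and 0.13 for Erbb3. The causes were not tested. No value was reversed past its threshold. Total UMI scaling moved the median of all genes by -0.15 on the log2 scale in both comparisons of day 3 with day 0. With 4 mice, 3 receptors near 15 CPM and 38 to 1148 cells per sum, small differences were not detectable.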

Other observations

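The cells left out of the sums also held members of the family. The 29 T and NK-like cells had Areg at 249.8 CPM (36 UMIs over all days). Only 17.2% of these 29 cells had an Areg UMI, and their median depth was 3571 UMIs. Fibroblast-like cells had Ereg at 59.2 CPM, Areg at 34.3 CPM and Egfr at 25.9 CPM. Among 81 fibroblast-like cells thinned to 2000 UMIs, 8.64% had a receptor UMI and 4.94% had an Egfr UMI. Macrophage-like cells had Areg at 18.7 CPM and Hbegf at 10.2 CPM.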
